A study of Mus musculus with 10 samples.

Results

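The genes described here are 38 cell cycle and proliferation genes, chosen by their symbols from the table of counts per gene, which lists 55487 distinct genes. They were divided by their role into 16 S phase genes, which act when a cell copies its DNA, and 22 mitosis genes, which act when it divides. RNA was measured in the RPE/choroid complex of mouse eyes, that is the retinal pigment epithelium (RPE) with the vascular layer behind it. The 5 control libraries came from iDTR mice and the 5 ADQ libraries from iDTR mice that also carried adiponectin-Cre. iDTR mice hold a gene for a diphtheria toxin receptor (human HBEGF) at the Rosa26 locus, on a C57BL/6 background, and make it only where Cre is active; the adiponectin promoter drives Cre in fat cells. The comparison asks what the loss of fat cells does to this tissue. Both groups received diphtheria toxin into the abdomen, daily for 7 weeks per the design text, which states that time for the Cre mice. The age of the mice is not stated in the labels or design text, nor whether every library is another animal; each p-value then speaks of the spread between libraries only, part of which may be technical.

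A dividing cell runs through a fixed order of steps. Cyclin E with its kinase opens S phase, a ring of MCM proteins unwinds the DNA, and PCNA holds the polymerase on it. Cyclin A and cyclin B then bind the kinase CDK1, whose activity drives the cell into mitosis, where Aurora and Polo kinases, kinesin motors and the spindle checkpoint separate the chromosomes until CDC20 with the anaphase-promoting complex ends the phase. The genes of each phase are switched on together, by E2F factors for S phase and by the MuvB complex with NF-Y for mitosis. In the adult eye the RPE does not divide as a rule, and the choroid holds blood vessels, pigment cells, stroma and resident immune cells. In RNA from whole tissue, fewer cells of a type and less RNA per cell cannot be told apart.

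The promoters of 6 members are shown because these genes carry the results below: Cdk1 is the member that passed the test, Mki67, Top2a and Cdc20 are, like most mitosis genes, at their highest in 1 library, control 3, Bub1b is not, and Mcm6 is the S phase member with the smallest p. Each is the 250 bases before the RefSeq start of the gene on GRCm38.p6, read 5′ to 3′ on the gene's own strand. Capitals mark 3 motifs searched on both strands: the CHR element, TTTGAA, through which MuvB complexes bind; the CCAAT box, bound by NF-Y; and an E2F core, which is TTCCCGC or TTCGCGC or TTGCCGC or TTGGCGC. An E2F core read on the other strand can overlap a CCAAT box.
Cdk1, chr10:69352913-69353162: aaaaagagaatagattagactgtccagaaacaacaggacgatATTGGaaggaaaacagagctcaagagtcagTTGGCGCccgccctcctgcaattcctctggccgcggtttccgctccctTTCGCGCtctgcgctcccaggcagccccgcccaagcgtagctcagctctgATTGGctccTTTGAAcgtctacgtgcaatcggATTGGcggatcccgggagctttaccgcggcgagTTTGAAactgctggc
Cdc20, chr4:118437344-118437593: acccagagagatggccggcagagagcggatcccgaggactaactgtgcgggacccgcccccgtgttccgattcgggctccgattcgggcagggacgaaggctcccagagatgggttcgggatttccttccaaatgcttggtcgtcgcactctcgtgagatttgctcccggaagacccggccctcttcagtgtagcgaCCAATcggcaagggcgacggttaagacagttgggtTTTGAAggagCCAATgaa
Mki67, chr7:135716380-135716629: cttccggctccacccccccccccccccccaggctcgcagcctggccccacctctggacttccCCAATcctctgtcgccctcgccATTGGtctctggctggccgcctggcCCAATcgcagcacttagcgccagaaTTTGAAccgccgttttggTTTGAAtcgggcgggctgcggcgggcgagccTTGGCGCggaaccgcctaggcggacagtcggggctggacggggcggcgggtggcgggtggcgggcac
Top2a, chr11:99024190-99024439: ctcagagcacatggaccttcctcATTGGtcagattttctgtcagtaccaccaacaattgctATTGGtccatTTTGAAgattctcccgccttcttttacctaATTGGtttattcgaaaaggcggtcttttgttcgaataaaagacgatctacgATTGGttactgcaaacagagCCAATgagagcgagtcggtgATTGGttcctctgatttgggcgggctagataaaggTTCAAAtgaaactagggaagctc
Bub1b, chr2:118597961-118598210: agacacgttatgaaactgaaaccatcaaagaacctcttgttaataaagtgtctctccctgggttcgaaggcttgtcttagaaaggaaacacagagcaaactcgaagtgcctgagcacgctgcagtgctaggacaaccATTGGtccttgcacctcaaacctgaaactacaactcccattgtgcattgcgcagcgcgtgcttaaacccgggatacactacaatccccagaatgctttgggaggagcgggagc
Mcm6, chr1:128359706-128359955: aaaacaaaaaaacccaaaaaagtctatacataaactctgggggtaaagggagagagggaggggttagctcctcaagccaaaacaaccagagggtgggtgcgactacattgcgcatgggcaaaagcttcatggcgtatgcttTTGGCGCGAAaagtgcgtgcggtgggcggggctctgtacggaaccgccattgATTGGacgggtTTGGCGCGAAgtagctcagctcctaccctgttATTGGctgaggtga

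The Cdk1 promoter holds all 3 motifs, with 2 CHR elements, at 71 and 15 bases before the start, 3 CCAAT boxes and 2 E2F cores. Mki67 also holds all of them, with CHR elements at 116 and 98 bases. Cdc20 has a CHR element at 18 bases, beside CCAAT boxes at 53 and 8 bases. In Top2a there are 2 CHR elements and 6 CCAAT boxes, and none of the E2F letters searched. Bub1b holds a single CCAAT box, at 113 bases. Mcm6 carries no CHR element, but 4 E2F cores in 2 overlapping pairs and 2 CCAAT boxes. RefSeq promoters were matched for 31 of the 38 members, 18 for mitosis and 13 for S phase. CHR letters stood in 38.9% of the mitosis promoters and 15.4% of the S phase promoters, against 16.3% of all 27025 promoters of the same length. E2F letters stood in 16.7% of the mitosis promoters and 53.8% of the S phase promoters, against 7.97% of all. CCAAT letters stood in 83.3%, 76.9% and 34.5% in the same order. A match is a description of the letters and not a binding site.

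Libraries held 43.59 to 64.09 M counts (M, mega). Levels are given as CPM, the count of a gene per mega of counted reads, scaled between libraries by TMM, and fold changes are ADQ over control, on the log2 scale, from edgeR. Adjusted p-values are Benjamini-Hochberg values over the 20684 genes that passed the filter on low counts, with a threshold of 0.05. The 7 RPE markers (such as Rpe65) summed to between 28117 and 48096 CPM, so the labelled tissue was present in all 10 libraries. The 7 adipocyte markers (such as Adipoq) summed to 65.7, 154.9, 85.2 and 104 CPM in controls 1 to 4, to 6.42 CPM in control 5 and to 7.36 to 24.9 CPM in ADQ, and none of the 6 tested passed. Control 5 thus lay below every ADQ library in the sum of these markers, though not in Cfd or Cidec singly. Of the controls, it also held the highest T and NK cell markers and the lowest Cdk1 and Ccnd1. Control 3 stood apart in the mitosis genes and in keratins, which are proteins of surface epithelia: the 7 surface epithelium markers summed to 2073 CPM there, to 171, 2.29, 65.0 and 540 CPM in controls 1, 2, 4 and 5, and to 0.743 to 2.13 CPM in ADQ. Of the 5 such markers tested (Krt5, Krt13, Krt4, Krt15, Trp63), all were highest in control 3 and none passed the test, the smallest adjusted p in edgeR being 0.0846; Krt14 and Krt12 did not pass the filter, and Krt12 stayed at or under 0.275 CPM. Fold changes of the mitosis genes are therefore given with and without control 3 where they moved. Control 3 was thus picked by the levels of these same genes, and leaving it out raises the fold changes of genes highest there.

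Of the 38 members, 37 passed the filter, and the exception was Bub1, a spindle checkpoint kinase, at 0 to 1.35 CPM. Cdk1 fell in ADQ and was the single member that passed the test. Over all genes tested, 0.087% were called lower and 0.74% were called higher. No S phase member passed; 1 of the 16 had an unadjusted p under 0.05, Mcm6, which was higher. Of the 21 mitosis members tested, 2 had an unadjusted p under 0.05, Cdk1 and Cdc20, both lower. Over all genes tested, 7.96% were higher and 5.85% lower at that p, so these counts are near the background. With DESeq2, Cdk1 was likewise the single member called. The median log2 fold change was 0.09 over the S phase members, 10 above 0 and 6 below, and -0.18 over the mitosis members, 4 above 0 and 17 below, against 0.01 over all genes tested. The median over the mitosis members depends on control 3: without it, the median was 0.51, with 18 members above 0 and 3 below. With all 10 libraries it was 0.44 in limma with voom quality weights and 0.22 in limma-trend, and in the authors' deposited table it is 0.42 over the 17 mitosis members listed.

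**Figure D1:**
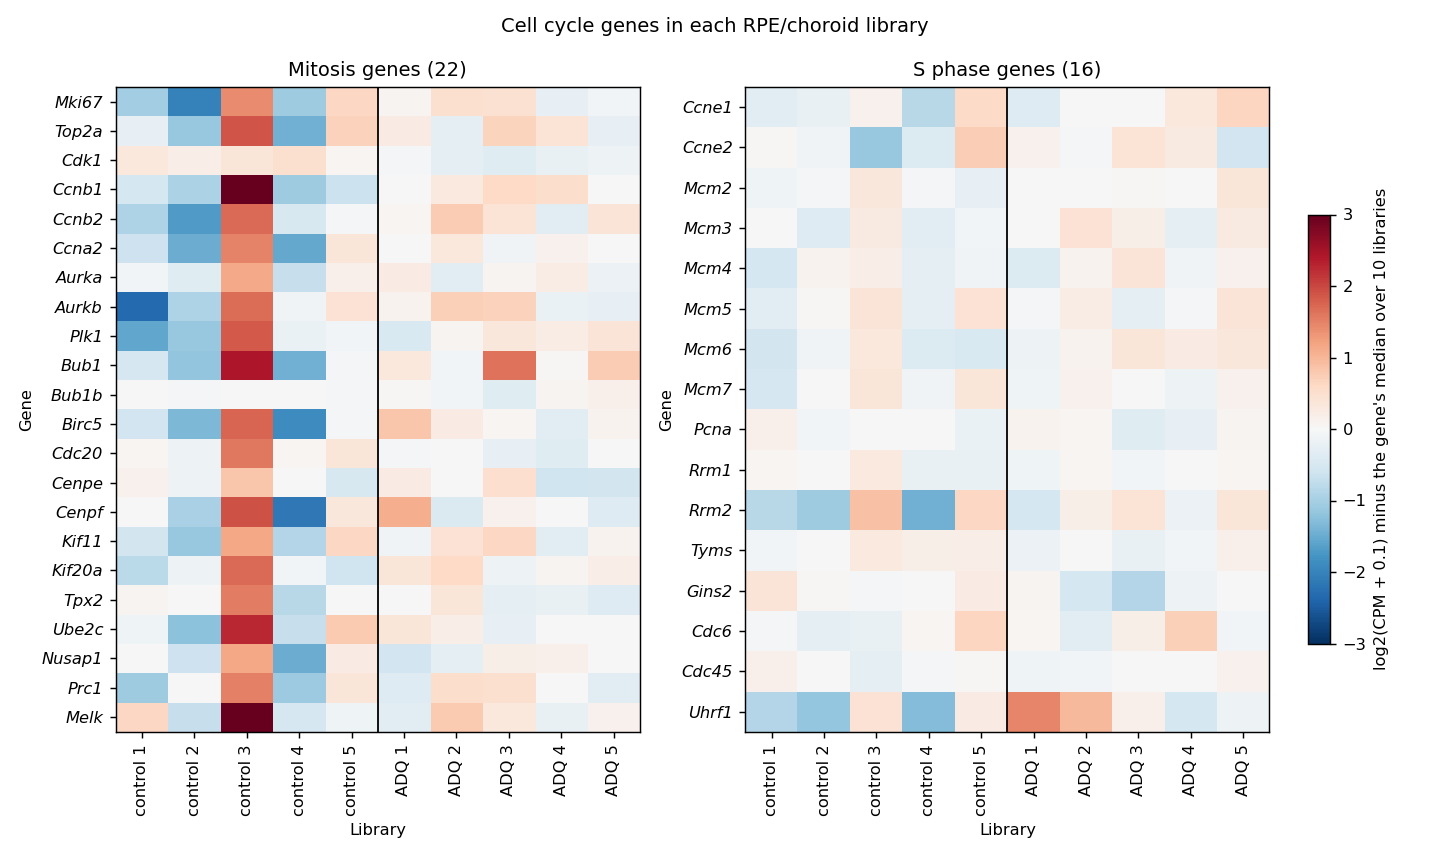
Level of the 22 mitosis genes (left) and 16 S phase genes (right) in each of the 10 libraries, as log2(CPM + 0.1) minus the gene's median over the libraries (colour, red higher, blue lower). Most mitosis genes are at their highest in control 3, while Cdk1 and Bub1b are not, and Cdk1 is at or above its median in all 5 controls.

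Cdk1 encodes the kinase whose activity with cyclins A and B starts mitosis (ENSMUSG00000019942, chr10:69335146-69352938, minus strand, GENCODE M21 on GRCm38; its promoter is shown above). Its level was 20.2, 18.5, 20.8, 22.6 and 16.9 CPM in controls 1 to 5, and 15.3, 13.1, 12.6, 13.8 and 14.4 CPM in ADQ 1 to 5. Every ADQ library lay below every control, and Cdk1 was the single member whose groups did not overlap; the ADQ libraries lay below all controls for 1.07% of all genes tested. The means were 19.8 ± 2.19 CPM in control and 13.8 ± 1.10 CPM in ADQ (SD, n = 5 each), and the log2 fold change was -0.52 with a standard error of 0.10, that is 1.43-fold lower (edgeR adjusted p = 0.0332). Counts of Cdk1 ran from 629 to 1064 per library, so counting error is below the spread between libraries, though its share was not computed. In the authors' deposited table Cdk1 has a log2 fold change of -0.52 and an adjusted p of 0.00698, and it is the single member under 0.05 of the 32 listed there.

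The call for Cdk1 lies near the threshold. Leaving out 1 library at a time kept the direction, with log2 fold changes of -0.57 to -0.46, but the edgeR adjusted p stayed under 0.05 in 2 of 10 such fits, those without control 5 (0.00977) or ADQ 1 (0.0355). In the other 8 fits it ran up to 0.109, with 0.0543 without control 3; calls over all genes also fell in most of these fits, for example to 69 higher and 7 lower without control 4, against 153 and 18. The call was also lost with library size alone as the scaling (log2 fold change -0.44, edgeR adjusted p = 0.0663), and with the level of surface epithelium markers (-0.50, adjusted p = 0.616) or of T and NK cell markers (-0.40, adjusted p = 0.423) as a covariate. T and NK cell markers, 9 genes such as Cd3e and Nkg7, summed to 31.0, 26.7, 31.2, 42.9 and 98.4 CPM in controls 1 to 5 and to 96.9 to 131.6 CPM in ADQ. Their part in the Cdk1 result was examined in that covariate fit alone. In it no gene of the 20684 passed, while 7.76% were higher at an unadjusted p under 0.05. The mean log2 CPM of these markers was 0.794 to 3.21 in controls and 3.185 to 3.519 in ADQ. That of the surface epithelium markers was -1.26 to 7.14 in controls and -2.79 to -1.68 in ADQ. The first nearly and the second fully separates the groups, so in these fits markers and group cannot be told apart.

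Cdk1 works only when bound to a cyclin, and its partners had other patterns. Ccnb1, which encodes cyclin B1 (chr13:100778650-100786570), was at 0.458, 0.316, 6.52, 0.280 and 0.416 CPM in controls 1 to 5 and at 0.692, 0.880, 1.11, 1.06 and 0.712 CPM in ADQ 1 to 5. Control 3 held more than any other library, and the other 4 controls lay below all ADQ libraries. The fitted log2 fold change of -0.85 had a standard error of 0.89 (edgeR adjusted p = 0.69); without control 3 it was 1.27 (adjusted p = 0.0865). Ccna2, cyclin A2, was at 1.19, 0.612, 5.52, 0.582 and 2.45 CPM in controls and at 1.86, 2.39, 1.76, 2.07 and 1.92 CPM in ADQ. Again control 3 was highest and controls 2 and 4 were lowest, and the log2 fold change was -0.06 with a standard error of 0.53 (edgeR adjusted p = 0.972), and 0.72 without control 3. Ccnb2, cyclin B2, was at 1.01, 0.553, 6.79, 1.42 and 1.93 CPM in controls and at 2.10, 3.46, 2.73, 1.56 and 2.65 CPM in ADQ. Its log2 fold change was 0.09 with a standard error of 0.57, and 1.02 without control 3 (edgeR adjusted p = 0.172). Per kilobase of exon, the mean level over the 10 libraries was 3.41 CPM for Cdk1, against 1.58 for Ccnb2, 0.498 for Ccna2 and 0.295 for Ccnb1; without control 3 these means were 3.32, 1.26, 0.403 and 0.156 CPM. Ccna2 overlaps Exosc9 on the other strand, and the labels do not say whether reads were counted by strand. The pseudogene Ccnb2-ps had 20 to 80 counts per library, against 28 to 348 for Ccnb2. Ccnb1-ps had 0 to 10, against 13 to 334 for Ccnb1. How reads shared between such copies were counted is not stated in the labels.

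**Figure D2:**
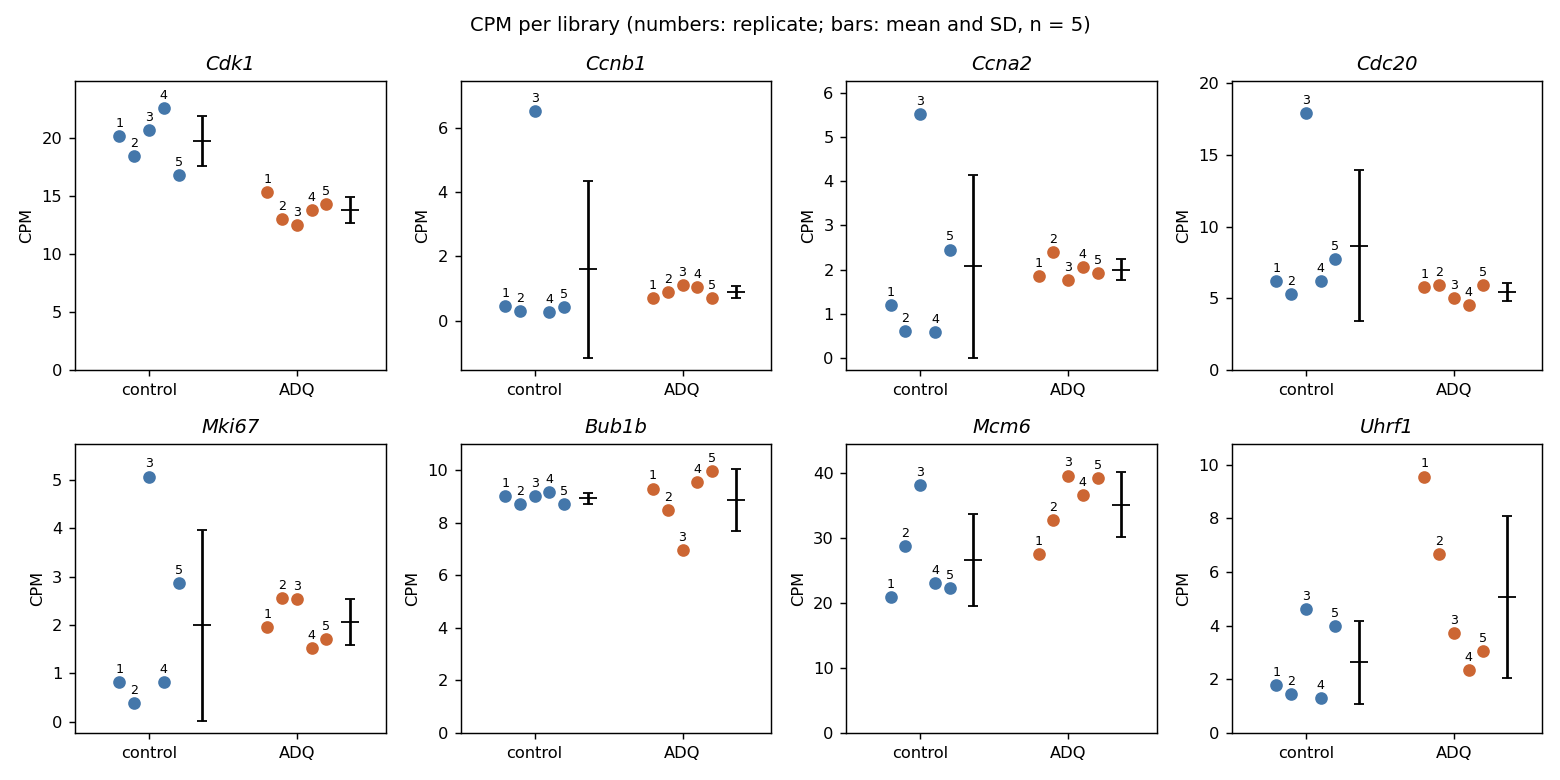
CPM of 8 members in each library (points, numbered by replicate) with the mean and SD of each group (bars, n = 5). Cdk1 separates the groups, while for Ccnb1, Ccna2, Cdc20 and Mki67 the control mean and SD are set by control 3, and Bub1b stays between 6.98 and 9.97 CPM.

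Mki67 and Top2a are the genes most used to mark dividing cells. Mki67 (chr7:135689784-135716361), which encodes the Ki-67 coat of mitotic chromosomes, was at 0.825, 0.375, 5.07, 0.819 and 2.87 CPM in controls 1 to 5 and at 1.95, 2.56, 2.54, 1.52 and 1.70 CPM in ADQ 1 to 5. The ADQ libraries lay close together and within the range of the controls, whose highest value was 13.5 times their lowest. The group means were 1.99 ± 1.98 CPM in control and 2.05 ± 0.479 CPM in ADQ (SD, n = 5 each), and the log2 fold change was 0.04 with a standard error of 0.58, and 0.75 without control 3. Top2a (chr11:98992943-99024189), the topoisomerase that untangles sister chromatids, was at 2.15, 1.11, 9.68, 0.884 and 4.16 CPM in controls and at 3.03, 2.11, 4.10, 3.45 and 2.14 CPM in ADQ. Its highest value was again in control 3 and its lowest in control 4, and the log2 fold change was -0.28 with a standard error of 0.59 (edgeR adjusted p = 0.854), and 0.51 without control 3.

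The kinases and exit factors of mitosis were also highest in control 3, while their lowest library differed from gene to gene. Plk1, the Polo-like kinase, was at 0.298, 0.434, 4.10, 0.927 and 1.02 CPM in controls and at 0.757, 1.14, 1.39, 1.27 and 1.44 CPM in ADQ. Its log2 fold change was -0.18 with a standard error of 0.59, and 0.84 without control 3 (edgeR adjusted p = 0.261). Aurka and Aurkb, the Aurora kinases of the spindle pole and of the centromere, had log2 fold changes of -0.15 and -0.04 with standard errors of 0.31 and 0.62, and 0.25 and 0.74 without control 3. Cdc20 (chr4:118432901-118437352), which directs the anaphase-promoting complex to cyclin B, was at 6.21, 5.31, 17.9, 6.19 and 7.71 CPM in controls and at 5.78, 5.93, 5.02, 4.55 and 5.93 CPM in ADQ. Apart from control 3 the groups were close and overlapped: the log2 fold change was -0.67 with a standard error of 0.30 (edgeR adjusted p = 0.341), and -0.22 without control 3. Cdc20 overlaps Elovl1 on the other strand. Melk, a kinase found in dividing cells, had the largest fitted difference among the mitosis genes, with 0.825, 0.276, 4.86, 0.323 and 0.457 CPM in controls and 0.390, 0.939, 0.649, 0.418 and 0.557 CPM in ADQ. That difference, a log2 fold change of -1.19 with a standard error of 0.76 (edgeR adjusted p = 0.497), came with a value of 0.33 when control 3 was left out. Tpx2, which targets Aurora A to the spindle, was at 2.27, 2.17, 6.38, 1.16 and 2.14 CPM in controls and at 2.14, 2.78, 1.72, 1.82 and 1.61 CPM in ADQ, with a log2 fold change of -0.49 and a standard error of 0.38; without control 3 the value was 0.06.

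Bub1b, which encodes the checkpoint protein BubR1 that holds back CDC20, stood apart from the other mitosis genes (chr2:118598211-118641591). It was at 9.01, 8.72, 9.03, 9.16 and 8.71 CPM in controls 1 to 5 and at 9.30, 8.49, 6.98, 9.56 and 9.97 CPM in ADQ 1 to 5. The controls were nearly level, and control 3 was not raised. The means were 8.93 ± 0.202 and 8.86 ± 1.18 CPM (SD, n = 5 each), and the log2 fold change was -0.01 with a standard error of 0.12. Its partner kinase Bub1, which was not tested, was at 0.0917, 0.0197, 1.35, 0 and 0.166 CPM in controls and at 0.238, 0.157, 0.744, 0.176 and 0.356 CPM in ADQ, and the count of 0 in control 4 allows up to 0.0647 CPM by counting error alone.

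The other mitosis members encode survivin (Birc5), the centromere proteins Cenpe and Cenpf, the kinesins Kif11 and Kif20a, the ubiquitin-conjugating enzyme Ube2c and the spindle proteins Nusap1 and Prc1. Their log2 fold changes ran from -0.72 in Ube2c to 0.08 in Kif11, with standard errors of 0.30 to 0.70, and none passed the test. Without control 3 all 8 were above 0, from 0.10 in Cenpe to 1.10 in Birc5, and none passed. All 8 were highest in control 3, where Ube2c was at 9.09 CPM, Birc5 at 6.52 CPM and Kif11 at 1.64 CPM; the highest values in ADQ were 2.36, 3.44 and 1.11 CPM.

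Counted over the 21 mitosis genes tested, 19 were highest in control 3 (90.5%, against 11.1% of all genes tested), the exceptions being Cdk1, highest in control 4, and Bub1b, highest in ADQ 5. Conversely, 17 of the 21 had their lowest value in a control library (81.0%, against 50.6% of all genes tested). The S phase members were alike in this, with 12 of 16 (75%). Most mitosis genes rose and fell together over the libraries. The median pairwise correlation over the 21 was 0.67, and 0.34 without control 3. Over all genes tested it was -0.003 with all 10 libraries. Cdk1 and Bub1b did not go with the others. Their correlations with the mean of the other mitosis genes were -0.14 and -0.10, and -0.85 and -0.28 without control 3. Those of Cdc20 and Cenpe were 0.76 and 0.50, and 0.0063 and -0.025 without control 3. Counts of the mitosis genes are therefore not counts of independent observations. The mean log2 CPM over the 21 genes was 0.46, 0.12, 2.55, 0.13 and 1.09 in controls 1 to 5 and 1.03, 1.15, 1.13, 0.88 and 0.89 in ADQ 1 to 5. Controls thus spanned both the highest and the lowest levels, and the ADQ libraries lay between them with a smaller spread, an SD of 0.13 against 1.02; the difference in spread was not tested. The difference of these means, ADQ minus control, was 0.14 on the log2 scale, opposite in sign to the median of the fitted fold changes, and 0.56 without control 3. Summed CPM over all 22 genes gave the other sign, 74.3 ± 40.1 in control and 59.7 ± 2.68 in ADQ (SD, n = 5 each), with 145.1 CPM in control 3 and 48.7 to 67.0 CPM in the other controls; without control 3 the difference was 3.13 CPM, higher in ADQ. Without control 3, 5 of the 21 genes (Ccnb1, Ccnb2, Plk1, Birc5 and Kif20a) were higher in ADQ at an unadjusted edgeR p under 0.05, and none passed after adjustment. Over all genes tested, 10.6% were higher at that p in this fit. Control 3 was set apart because these same genes were highest there. Leaving it out therefore raises their fold changes by construction, and the 2 shares are no test. Among the controls, the mitosis mean and the summed surface epithelium markers had the same order, from control 3 through 5, 1 and 4 to 2. The ADQ libraries, whose marker sums were all below those of the controls, were not at the lowest mitosis levels. The part of those markers in the mitosis levels was examined only as a covariate, which gave a median of 2.25 over the mitosis members. In that fit the mean log2 CPM of the markers fully separates the groups. Its lowest control was at -1.26 and its highest ADQ library at -1.68, so markers and group cannot be told apart.

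**Figure D3:**
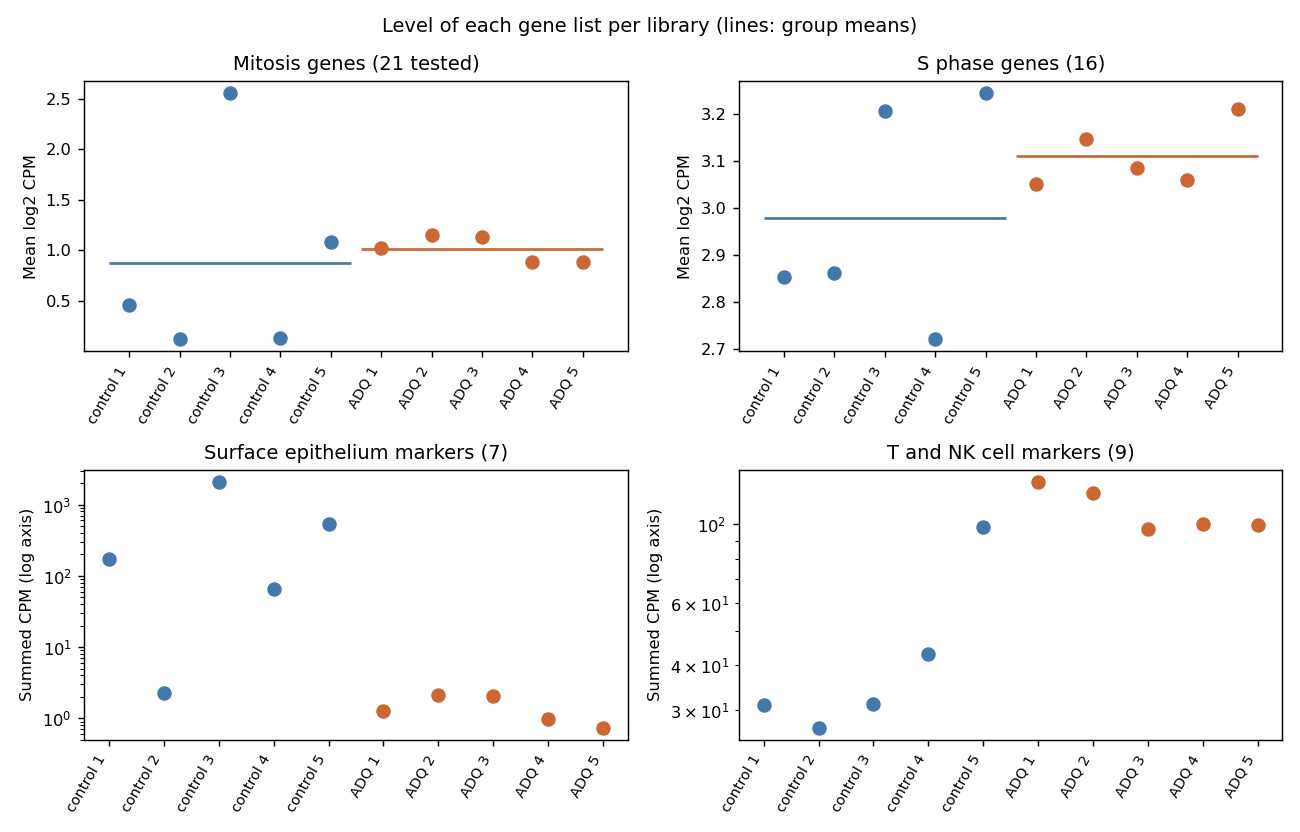
Mean log2 CPM of the 21 tested mitosis genes and the 16 S phase genes, and summed CPM (log axis) of the 7 surface epithelium markers and the 9 T and NK cell markers, in each library (points; lines in the upper panels are group means). Control 3 is highest in the mitosis genes at 2.55 and in the surface epithelium markers at 2073 CPM, and the T and NK cell markers are at 96.9 to 131.6 CPM in ADQ.

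The S phase genes were described in the same way. Their mean log2 CPM was 2.85, 2.86, 3.21, 2.72 and 3.24 in controls 1 to 5 and 3.05, 3.15, 3.09, 3.06 and 3.21 in ADQ 1 to 5. Controls 3 and 5 were level with ADQ, and controls 1, 2 and 4 were lower. Control 3 held the highest value in 4 of the 16 genes. The ratio of highest to lowest library ran from 1.37 in Cdc45 to 7.27 in Uhrf1, against 1.43 in Bub1b to 34.4 in Cenpf for the mitosis genes tested.

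Among the helicase genes, Mcm6 had the smallest p of the S phase members (chr1:128331590-128359664). It was at 20.8, 28.7, 38.1, 23.1 and 22.2 CPM in controls 1 to 5 and at 27.5, 32.8, 39.5, 36.5 and 39.1 CPM in ADQ 1 to 5. Controls 2 and 3 reached into the range of ADQ and the other 3 lay below it. The means were 26.6 ± 7.10 and 35.1 ± 5.02 CPM (SD, n = 5 each), a log2 fold change of 0.40 with a standard error of 0.16, which did not pass (edgeR adjusted p = 0.302; 0.0543 without control 3). In the authors' deposited table the value is 0.46 with an adjusted p of 0.0529. The other 5 MCM subunits, Mcm2, Mcm3, Mcm4, Mcm5 and Mcm7, had log2 fold changes from -0.07 in Mcm7 to 0.22 in Mcm3. All 6 subunits form 1 ring, and per kilobase of exon their mean levels ran from 2.16 CPM in Mcm2 to 6.61 CPM in Mcm6. Mcm2 was at 12.3 to 18.6 CPM in controls and 14.5 to 18.8 CPM in ADQ.

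Cdc6 and Cdc45, which load and start the helicase, and Gins2, a subunit of its active form, did not pass the test. Gins2 was at 7.06, 5.51, 5.09, 5.30 and 6.32 CPM in controls and at 5.63, 3.68, 2.86, 4.81 and 5.39 CPM in ADQ. All but ADQ 1 and ADQ 5 lay below every control; the log2 fold change was -0.39 with a standard error of 0.20 (edgeR adjusted p = 0.398), opposite in sign to that of Mcm6, and Gins2 overlaps Gse1 on the other strand. Cdc45 was nearly level at 2.75 to 3.76 CPM over all libraries, and Cdc6 was low at 0.626 to 1.38 CPM. Pcna, the sliding clamp, had the highest level per kilobase of the members at 16.7 CPM, with 36.1 to 45.7 CPM in controls and 32.1 to 44.3 CPM in ADQ. Its log2 fold change was -0.04 with a standard error of 0.11. A processed copy of the gene, Pcna-ps2, had 103 to 231 counts, and the labels do not say how reads shared between copies were counted.

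The enzymes of nucleotide supply divided by level. Rrm1, the large subunit of ribonucleotide reductase, was steady at 31.7 to 45.4 CPM in controls and 34.2 to 38.9 CPM in ADQ. Rrm2, the small subunit, which is made in S phase, was at 1.58, 1.32, 5.36, 0.992 and 4.49 CPM in controls and at 1.97, 3.27, 3.87, 2.55 and 3.71 CPM in ADQ. Controls 3 and 5 were above all ADQ libraries and the other 3 below, the order seen in Mki67 and Ccna2; the log2 fold change was 0.16 with a standard error of 0.44, and 0.55 without control 3. Tyms, thymidylate synthase, was at 9.72, 10.5, 12.8, 11.8 and 11.9 CPM in controls and at 9.13, 10.2, 8.81, 9.87 and 11.6 CPM in ADQ, with a log2 fold change of -0.19 and a standard error of 0.12.

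Uhrf1, which brings the maintenance methyltransferase to newly copied DNA, had the largest fitted difference of the S phase members (chr17:56303321-56323486). It was at 1.79, 1.46, 4.62, 1.32 and 3.99 CPM in controls and at 9.56, 6.69, 3.74, 2.33 and 3.05 CPM in ADQ. ADQ 1 and ADQ 2 lay above every control and the other 3 within their range. The log2 fold change was 0.94 with a standard error of 0.46 (edgeR adjusted p = 0.393); it was 0.58 without ADQ 1, 0.21 with the T and NK cell covariate and 2.30 with the surface epithelium covariate. Cyclin E genes did not pass either: Ccne1 was at 0.798 to 2.27 CPM in controls and 1.13 to 2.40 CPM in ADQ, and Ccne2, which overlaps Ints8 on the other strand, at 3.63 to 13.7 CPM and 5.40 to 10.9 CPM.

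**Figure D4:**
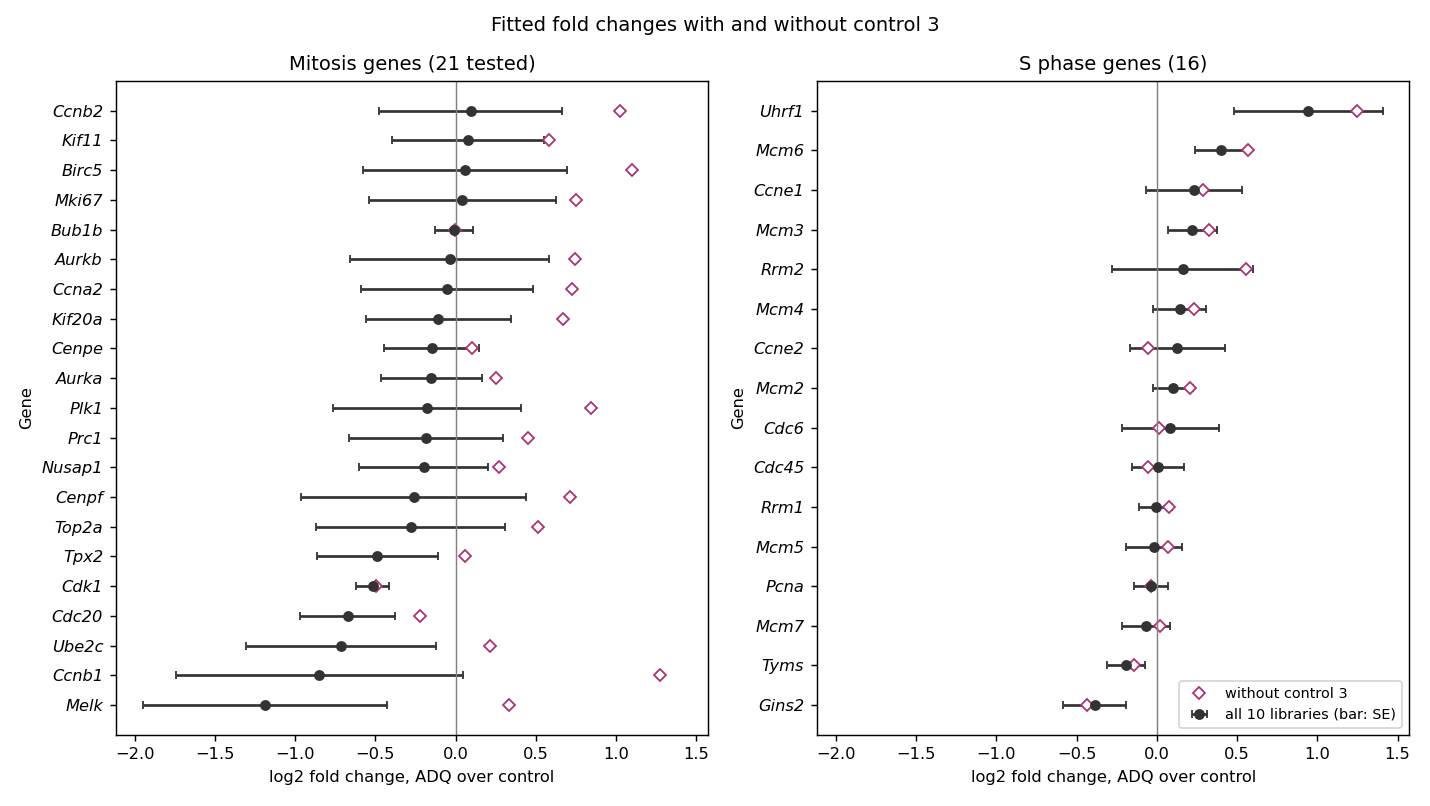
Fitted log2 fold change, ADQ over control, of each member tested with all 10 libraries (filled points, bars are standard errors) and without control 3 (open diamonds). Without control 3, 18 of the 21 mitosis genes lie above 0, Cdk1 stays at -0.50, and most S phase genes move little.

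Other genes of the cycle were counted in the same fit. Of 23 further S phase genes, 1 passed, Rfc4, a subunit of the clamp loader that places PCNA on DNA, and it rose. Rfc4 (chr16:23113943-23127737) was at 6.10, 5.45, 7.72, 5.80 and 7.69 CPM in controls and at 11.5, 10.8, 10.2, 9.98 and 10.8 CPM in ADQ. All ADQ libraries lay above all controls, as for 2.09% of all genes tested, and the log2 fold change was 0.70 with a standard error of 0.13 (edgeR adjusted p = 0.0229), a call that was lost in 6 of the 10 fits that left out 1 library, with adjusted p up to 0.0781. It overlaps Eif4a2 on the other strand. The median over those 23 genes was 0.18, with 16 above 0 and 7 below.

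Of 19 genes for pocket proteins, E2F factors and MuvB subunits, which switch the S phase and mitosis genes on and off, E2f2 passed and rose. This activating E2F (chr4:136172394-136196057) was at 1.28, 1.97, 1.54, 0.970 and 1.41 CPM in controls and at 2.79, 3.46, 3.24, 3.30 and 2.77 CPM in ADQ. All ADQ libraries again lay above all controls (2.09% of all genes tested), and the log2 fold change was 1.11 with a standard error of 0.22 (edgeR adjusted p = 0.028); the call was lost in 5 of the 10 fits that left out 1 library, with adjusted p up to 0.0912. Both also lost their call with either marker covariate, in fits that left 7 and 0 calls over all genes. The log2 fold changes in those fits were 1.07 with the surface epithelium and 0.47 with the T and NK cell covariate for Rfc4, and 0.94 and 1.36 for E2f2. The median over the 19 genes was 0.06. In the authors' deposited table E2f2 has a log2 fold change of 1.15 and an adjusted p of 0.0072. Rbl2, which encodes a pocket protein and did not pass in edgeR, is also under 0.05 there (0.58, adjusted p of 0.0431).

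In the remaining lists no gene passed. Among 30 further mitosis genes, 24 were highest in control 3, the median log2 fold change was -0.02 (0.32 without control 3, with 26 above 0 and 4 below), and Anln, which encodes the ring protein anillin, had the smallest p (log2 fold change -1.31, standard error 0.49, edgeR adjusted p = 0.268), at 7.10 CPM in control 3 and 1.03 to 2.22 CPM in the other controls. Of 10 genes for G1 cyclins and kinases, Ccnd1, cyclin D1, came nearest, with 55.5, 53.8, 56.3, 54.7 and 45.6 CPM in controls and 41.9, 39.0, 46.6, 42.2 and 42.7 CPM in ADQ. Control 5 alone reached into the range of ADQ, and the log2 fold change was -0.32 with a standard error of 0.08 (edgeR adjusted p = 0.0991). The smallest edgeR adjusted p was 0.522 among the 6 CDK inhibitors tested of 7 (Cdkn2b). It was 0.419 (Cks1b, which binds CDK1) among 12 other cycle regulators, which include checkpoint kinases and both activators and inhibitors of CDK1. Among 10 targets of p53 it was 0.162 (Phlda3). In the same order, the median log2 fold changes of these lists were -0.10, -0.0022 and -0.01.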

How the data were processed

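RNA from 10 libraries (5 control, 5 ADQ, grouped by sample title) was purified on NucleoSpin columns after TRIzol and amplified by SMARTer, per the labels' protocols. The submitters' processing notes name GRCm38, bcl2fastq, DRAGEN, edgeR and limma without roles or strand settings. The authors' deposited counts are whole numbers per Ensembl gene and are not normalized (55774 entries, 287 repeats removed). The authors' deposited comparison table gives log2 CPM, log2 fold changes, a moderated score and p-values. It covers 15860 genes, so 6 members are absent from the values quoted from it.

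Genes were filtered with filterByExpr (minimum count 10, minimum total 15), scaled by TMM and tested with edgeR 4.0.16 (robust quasi-likelihood, group as the single term; R 4.3.3), adjusted over all genes tested. Standard errors divide the log2 fold change by the root of the F statistic. Mean log2 CPM uses a prior count of 2. The test was checked on simulated data, with changes set in genes of log2 CPM above 0. It recovered 41.8% of 1.5-fold, 73.1% of 2-fold and 92.4% of 4-fold changes, none in the wrong direction, and called 9 unchanged genes. A gene that did not pass may thus still differ, above all by 1.5-fold or less. Alternatives were other scalings and filters, DESeq2 1.42.0, limma 3.58.1 with voom quality weights, a replicate block, marker covariates and each library left out; limma-trend was added after seeing the data. Positions come from GENCODE M21. Members and lists were chosen with earlier results of these data known. Named genes are those that passed, the 4 smallest p in each of the S phase and mitosis lists, genes showing each role, and from every further list those that passed or the smallest p. No 2 libraries agreed within counting noise (smallest chi-square 33.9 per degree of freedom, genes with at least 500 counts). Reads carry no molecular identifiers, so the limit from a count of 0 (3 counts) covers counting error only.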

Additional observations from a re-analysis of the deposited data

Results flagged for a closer look

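A value was marked when, within a group of 5, its gap to the nearest library was over 0.71 of the group's whole range. In all, 80 groups were examined and 12 values were marked. Chance marks about 1 in 20 groups when values follow a normal distribution. The rule was applied to CPM without a log scale, whose distribution was not examined, so that rate is no firm measure here. Of the 12, 9 lay in control 3, all mitosis genes: Ccnb1 at 6.52 CPM (other controls 0.280 to 0.458), Ccnb2 at 6.79 CPM (0.553 to 1.93), Plk1 at 4.10 CPM (0.298 to 1.02), Bub1 at 1.35 CPM (0 to 0.166), Birc5 at 6.52 CPM (0.431 to 1.81), Cdc20 at 17.9 CPM (5.31 to 7.71), Kif20a at 4.39 CPM (0.687 to 1.21), Tpx2 at 6.38 CPM (1.16 to 2.27) and Melk at 4.86 CPM (0.276 to 0.825). These genes share 1 library, so the 9 marks are not independent of each other. The other 3 lay elsewhere: the helicase gene Mcm2 was at 18.8 CPM in ADQ 5 (other ADQ libraries 14.46 to 15.03), the helicase loader Cdc6 at 1.33 CPM in control 5 (0.651 to 0.841), and the centromere gene Cenpf at 1.64 CPM in ADQ 1 (0.509 to 0.801).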

How the results depend on the processing

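The count of S phase members called was 0 under every alternative run. The count of mitosis members called, 1 (Cdk1), was 0 with library size alone and with either marker covariate, and ran from 0 to 1 when 1 library was left out. The covariate fits cannot tell the markers from the group, which the markers nearly or fully separate. The S phase median ran from 0.0072 to 0.12 without 1 library and was -0.089 with the T and NK cell covariate. The mitosis median ran from -0.32 to 0.51 without 1 library and turned to 0.51 only without control 3. It was 0.44 with voom quality weights, 0.20 with the replicate block, 2.25 with the surface epithelium covariate and 0.22 with limma-trend, which has no such weights. The voom weights ran from 0.55 in ADQ 1 to 2.295 in ADQ 4, with 0.58 in control 3. In the authors' deposited table the median over the 17 mitosis members listed is 0.42, with Mki67 at 1.14 and Ccna2 at 1.04; the cause of the difference from edgeR was not tested.

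Of the 21 mitosis members tested, 13 turned sign with voom quality weights, 9 with the replicate block, 15 with the surface epithelium covariate, 8 with the T and NK cell covariate, 9 with limma-trend and 14 without control 3; none of those that turned was called. For the members followed singly across all alternatives, the values that turned were as follows. With voom quality weights the log2 fold change was 0.16 for Melk, 0.96 for Ccnb1, 0.99 for Ccna2, 0.0045 for Bub1b, 0.75 for Plk1 and 0.72 for Top2a. With the replicate block it was 0.47 for Ccnb1, 0.47 for Ccna2, 0.40 for Plk1 and 0.20 for Top2a. With the surface epithelium covariate it was 0.50 for Cdc20, 2.27 for Melk, 0.60 for Tpx2, 3.01 for Ccnb1, 2.55 for Ccna2, 2.25 for Plk1 and 2.30 for Top2a. With the T and NK cell covariate it was 0.49 for Melk, 0.018 for Tpx2, 1.33 for Ccnb1, 0.31 for Plk1, -0.47 for Mki67, -0.32 for Rrm2 and 0.053 for Pcna. With limma-trend it was 0.38 for Ccnb1, 0.46 for Ccna2, 0.39 for Plk1 and 0.23 for Top2a, and with library size alone 0.066 for Bub1b and 0.038 for Pcna. Leaving out 1 library gave -1.45 to 0.33 for Melk, -0.69 to 0.056 for Tpx2, -1.12 to 1.27 for Ccnb1, -0.29 to 0.72 for Ccna2, -0.057 to 0.064 for Bub1b, -0.43 to 0.84 for Plk1, -0.22 to 0.75 for Mki67, -0.53 to 0.51 for Top2a, -0.053 to 0.55 for Rrm2 and -0.082 to 0.028 for Pcna.

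The sample titles do not say whether same-numbered libraries are pairs. Little sign of pairing was seen: such libraries had correlations of 0.03, 0.03, 0.16, 0.01 and -0.11 between their deviations from the group means. With the number as a block, 392 genes were called higher and 302 lower, against 153 and 18, and Cdk1 was the member called. Over all genes, DESeq2 called 506 higher and 267 lower, voom quality weights 511 and 153, limma-trend 231 and 33, the surface epithelium covariate 7 and 0, and the T and NK cell covariate 0 and 0. Library size alone moved the median of all genes to 0.10. Counts of the low mitosis genes, down to 4 in Cenpf and 7 in Aurkb, limit their precision in single libraries.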
